A study of Mus musculus with 23 samples.

Results

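Brain cells of mice given a fluorescent transferrin receptor-binding antibody, ATV-TfR, were sorted by the antibody signal they carried, and the medium bin was compared here with the low bin. The members are the cells of the 4 libraries titled TfR medium (pools 1 and 2) and TfR low (pools 1 and 2). Of 69322 cell barcodes in these libraries, 65680 had at least 500 genes, at least 800 UMIs (unique molecular identifiers, which count captured RNA molecules) and at most 10% mitochondrial UMIs. After removal of 4829 computed doublets, 60851 cells were kept, of 233732 kept in all 23 libraries of the series. The low bin held 14919 and 16867 of these cells in pools 1 and 2, and the medium bin 14739 and 14326.

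Each pool joined 1 male and 1 female mouse with the TfR mu/hu KI genotype, a mouse and human transferrin receptor knock-in on a C57Bl6J background, aged 12 weeks by the series' design text and 3.3 months by the sample labels. All had received a single intravenous dose of 45 mg/kg of DNP02_hIgG1_LALAPG_ATV35.23.2 carrying Alexa647, and brains were taken a day later after perfusion. Olfactory bulbs, cerebellum, pons and medulla had been removed, the tissue was dissociated with actinomycin D and anisomycin present, and myelin was depleted. Live cells positive for the dye were divided into tertiles of the ATV-TfR signal, and the low and medium bins are the lower and the middle tertile. The gates thus decide which cells enter a library, and every share below is a share of sorted cells. Both bins of a pool came from the same animals. The comparison drawn on below, ATV-CD98hc, used CD98hc mu/hu KI mice at the same dose of DNP02 LALAPG LLB2-10-8 monovalent, sorted with the same gates, so antibody and genotype cannot be told apart there. The negative and high bins of ATV-TfR are used to place a level. The class in which a gene was highest was taken from the negative bins of ATV-TfR, ATV-CD98hc and a control IgG together. Libraries of all these treatments and bins enter the fit, where they add to the estimate of spread.

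The transferrin receptor, encoded by Tfrc, binds iron-loaded transferrin at the cell surface, is taken up through clathrin-coated pits and returns to the membrane after iron is released in the endosome. Brain endothelial cells carry it at the blood-brain barrier, and an antibody transport vehicle (ATV) is an antibody whose Fc part was engineered to bind such a receptor and so cross these cells. Astrocytes are the glia that wrap vessels with their endfeet, clear glutamate and buffer ions, and they turn on Gfap, an intermediate filament gene, when reactive. CD98 heavy chain, encoded by Slc3a2, pairs with light chains such as Slc7a5 to carry large neutral amino acids.

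The 4 libraries held 70569783 to 83983229 UMIs, within the range of 1861240 to 90307800 over the series, and a median of 3725 to 3987 UMIs per kept cell. Clusters were named from marker genes and carry the suffix -like. They left 2.0% to 3.13% of cells unnamed. Each pair of the 4 libraries shared 44 to 79 cell barcodes, 0.307% to 0.536% of the smaller library. Cells carrying Xist rather than Y-linked genes made up 56.6% to 65.6% of those that could be called, so both animals of each pool were present in both bins. The 12 astrocyte markers had been used to name the clusters, so their level does not test the label. In astrocyte-like cells of the low bin they summed to 20055 and 20687 CPM (UMIs scaled to the same total in each library and class). In the medium bin their sum was 22713 and 23823 CPM.

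Astrocyte-like cells filled both bins, and endothelial-like cells, which line the vessels, were the class that set the bins apart most by the size of the change. Astrocyte-like cells made up 85.1% and 89.5% of the low libraries (12693 and 15088 cells) and 75.3% and 76.4% of the medium libraries (11101 and 10946 cells). The means were 87.3% ± 3.09 (SD, n = 2) and 75.9% ± 0.770, and the groups did not overlap. The change in share was -0.20 on the log2 scale (SE 0.39, 95% interval -0.97 to 0.56, adjusted p = 0.61), so a fall of this size was not told from no change by edgeR's quasi-likelihood test on cell numbers. Endothelial-like cells made up 2.06% and 1.22% of the low libraries (308 and 206 cells) and 17.2% and 16.3% of the medium libraries (2535 and 2342 cells). Their share rose by 3.35 on the log2 scale (SE 0.32, adjusted p = 3.3e-09).

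**Figure D1:**
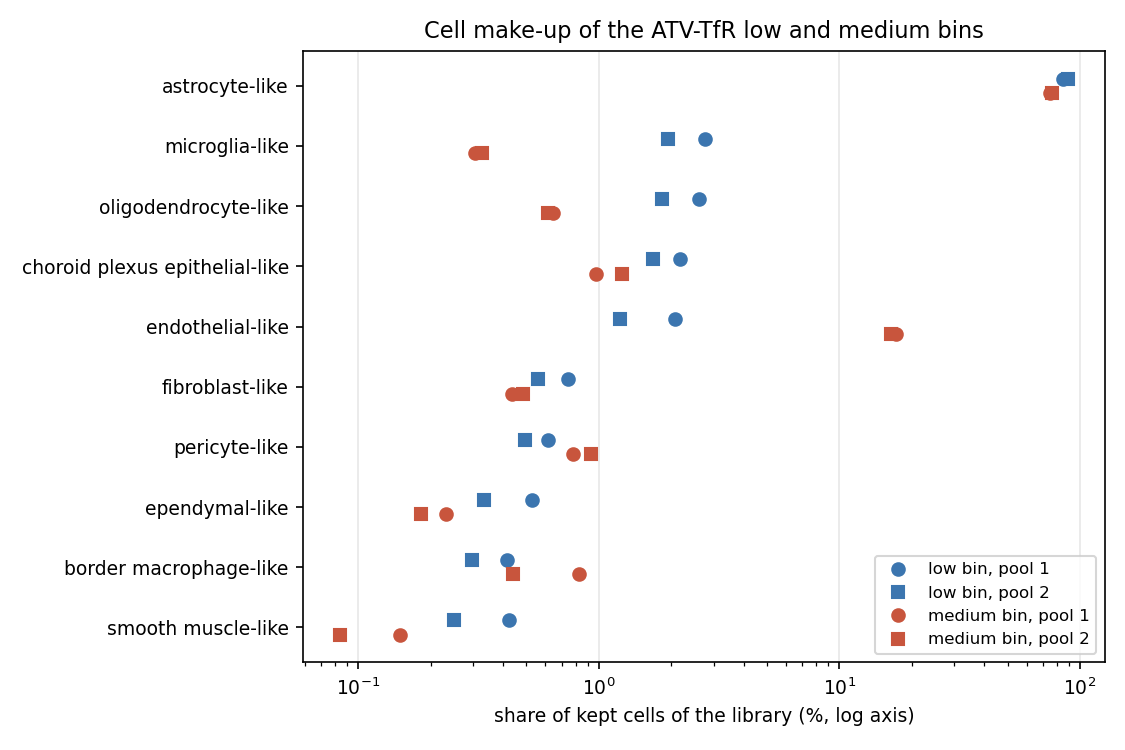
Share of kept cells (percent, log axis) held by each marker-named class in the 4 libraries, blue for the low bin and red for the medium bin, circles for pool 1 and squares for pool 2. Endothelial-like cells stand at 1.22% and 2.06% in the low bin and at 16.3% and 17.2% in the medium bin, and microglia-like cells lie the other way round.

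Of 10 named classes, 6 changed share at an adjusted p below 0.05. Microglia-like cells, the resident macrophages of the brain, fell from 2.76% and 1.93% (412 and 326 cells) to 0.305% and 0.328% (45 and 47 cells), a log2 change of -2.88 (SE 0.47, adjusted p = 1.2e-05). Oligodendrocyte-like cells, which make myelin, fell from 2.62% and 1.84% (391 and 310 cells) to 0.645% and 0.614% (95 and 88 cells), a log2 change of -1.82 (SE 0.38, adjusted p = 0.00022). Among cells assigned to males this change was -1.05 (adjusted p = 0.044) and among those of females -2.13 (adjusted p = 0.0014). Both classes were lower in each medium library than in either low library.

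Smaller classes moved in both directions. Smooth muscle-like cells fell from 0.422% and 0.249% to 0.149% and 0.0838%, a log2 change of -1.51 (SE 0.46, adjusted p = 0.0088), with only 22 and 12 cells in the medium libraries. Without low pool 1 the change was -1.08 and without medium pool 2 it was -1.16, and neither passed the threshold. Ependymal-like cells, the ciliated lining of the ventricles, fell from 0.530% and 0.332% to 0.231% and 0.181% (-1.05, SE 0.45, adjusted p = 0.046). This call was lost without low pool 1 (-0.684), medium pool 1 (-1.24) or medium pool 2 (-0.893). Border macrophage-like cells, the macrophages of meninges and perivascular spaces, rose from 0.416% and 0.296% to 0.828% and 0.440% (0.83, SE 0.35, adjusted p = 0.046). Without low pool 2 their change was 0.608 and without medium pool 1 it was 0.307, and neither was called.

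Of the 4 classes that did not pass, 2 passed once the pool was a term in the fit. Choroid plexus epithelial-like cells, which secrete cerebrospinal fluid, made up 2.17% and 1.67% of the low libraries and 0.977% and 1.25% of the medium libraries (-0.79, SE 0.39, adjusted p = 0.083, and 0.0069 with the pool block). Pericyte-like cells, the mural cells of capillaries, made up 0.617% and 0.492% against 0.780% and 0.928% (0.62, SE 0.45, adjusted p = 0.20, and 0.039 with the block). Fibroblast-like cells stood at 0.744% and 0.557% against 0.434% and 0.482% (-0.50, SE 0.32, adjusted p = 0.16).

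Shares of 1 library add up to the whole, so a class that grows lowers the share of the rest. Taken over cells outside the endothelial-like class, astrocyte-like cells made up 86.9% and 90.6% of the low libraries and 91.0% and 91.3% of the medium libraries, a log2 change of 0.04 (adjusted p = 0.92). On that base microglia-like cells still fell by 2.64, oligodendrocyte-like cells by 1.58 and smooth muscle-like cells by 1.26 on the log2 scale, while border macrophage-like cells rose by 1.07. The ependymal-like change became -0.81 (adjusted p = 0.14).

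With ATV-CD98hc, the step from the low to the medium bin took in the astrocyte-like cells. There the astrocyte-like share fell from 65.9% and 70.1% to 7.33% and 9.10%, and the endothelial-like share rose from 12.0% and 11.1% to 81.9% and 81.9%. The change in the astrocyte-like share was -0.20 for ATV-TfR and -3.05 for ATV-CD98hc on the log2 scale, and the test of that difference gave 2.85 (SE 0.56, adjusted p = 0.00039). Both are changes in the share of all kept cells. The change outside the endothelial-like class was not computed for ATV-CD98hc, so the part of its endothelial-like rise in this difference was not tested. For endothelial-like cells the changes were 3.35 and 2.83, a difference of 0.52 (SE 0.42, adjusted p = 0.62). For microglia-like cells they were -2.88 and -3.30. No other class had a called difference, and the widest of these uncalled gaps was in smooth muscle-like cells, at -1.45 (SE 0.75, adjusted p = 0.32).

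**Figure D2:**
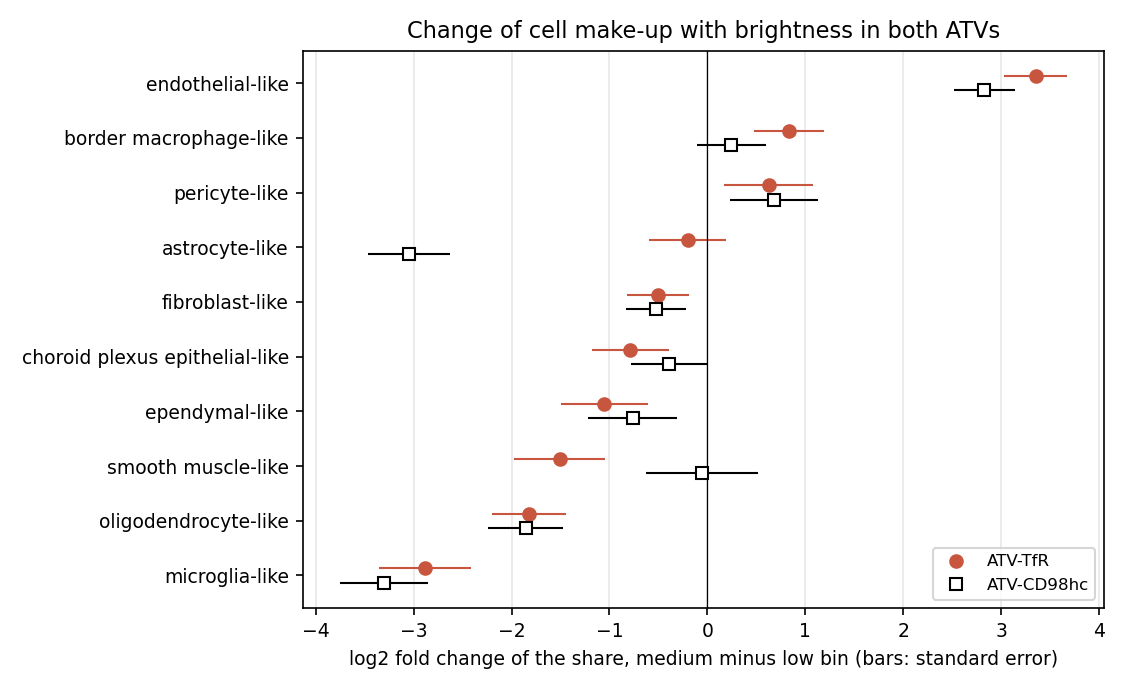
Log2 change of each class's share from the low to the medium bin, with its standard error, for ATV-TfR and for ATV-CD98hc. The astrocyte-like point lies at -0.20 for ATV-TfR and at -3.05 for ATV-CD98hc, and the endothelial-like points lie at 3.35 and 2.83.

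Within astrocyte-like cells, few genes passed the test between the bins. Of 15924 genes tested with edgeR's quasi-likelihood test on UMIs summed per library, 46 were called at an adjusted p below 0.05, which is 0.289% of the genes. In the medium bin 15 were higher (0.0942%) and 31 were lower (0.195%). An unadjusted p below 0.05 was reached by 1031 genes. With the pool as a block, 203 genes were called (1.27%), 112 higher (0.703%) and 91 lower (0.571%), and these held all 46. Without low pool 1, low pool 2, medium pool 1 or medium pool 2 the calls numbered 16, 8, 6 and 14, with all 46 genes keeping their direction. Median UMIs per astrocyte-like cell were 3703 and 3950 in the low bin and 4124 and 4185 in the medium bin, and mitochondrial UMIs 2.42% and 2.45% against 2.87% and 3.01%. The part of these gaps in the gene differences was not tested. In each of the 4 libraries the same cluster held the most astrocyte-like cells, between 38.4% and 44.9% of them. Other clusters differed between the bins: 1 held 11.8% and 13% of the class in the low bin and 19.6% and 20.7% in the medium bin, another 23.2% and 23.3% against 19.8% and 18.1%, and 1 more 10.3% and 7.48% against 6.85% and 5.27%. In the largest cluster alone 131 genes were called, 40 of the 46 among them.

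Gfap, a filament gene of reactive astrocytes and of the glial border zones, rose. Its level was 44.6 and 35.6 CPM in the low libraries and 82.6 and 72.8 CPM in the medium libraries. Both medium libraries lay above both low libraries, and the log2 fold change was 0.98 (SE 0.17, adjusted p = 0.019). Over the whole range of bins Gfap stood at 47.8 and 26 CPM in the negative bin and at 267 and 266 CPM in the high bin. When UMIs were split by animal, the females had 44.5 and 37.2 CPM and the males 45.1 and 34.0 CPM in the low bin, against 84.4 and 71.8 CPM and 80.6 and 67.1 CPM in the medium bin. Gfap lies on chromosome 11 at 102887336 to 102900912 (GRCm38, minus strand). Gm26668 overlaps it on the other strand, and reads of the pair cannot be told apart where counting ignores strand.

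C4b, a complement component, also rose, from 22.8 and 23.3 CPM to 35.7 and 37.4 CPM. The log2 fold change was 0.69 (SE 0.14, adjusted p = 0.043). C4b (chromosome 17, 34728380 to 34743882) has a close copy, C4a, so reads may be split between them. B2m, the light chain of MHC class I and of the neonatal Fc receptor, rose from 31.6 and 32.0 CPM to 41.5 and 43.7 CPM (0.44, SE 0.087, adjusted p = 0.038). Adcyap1r1, the receptor of the neuropeptide PACAP, rose from 163 and 168 CPM to 219 and 233 CPM (0.47, SE 0.094, adjusted p = 0.043). In none of these 3 genes did the bins overlap. With any 1 of the 4 libraries left out, none of Gfap, C4b, B2m and Adcyap1r1 passed, while their log2 fold changes stayed between 0.84 and 1.14, 0.65 and 0.74, 0.40 and 0.50, and 0.42 and 0.53. A stricter cell filter (at least 1000 genes and at most 5% mitochondrial UMIs) also ended these calls, with values of 0.92, 0.69, 0.45 and 0.46.

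**Figure D3:**
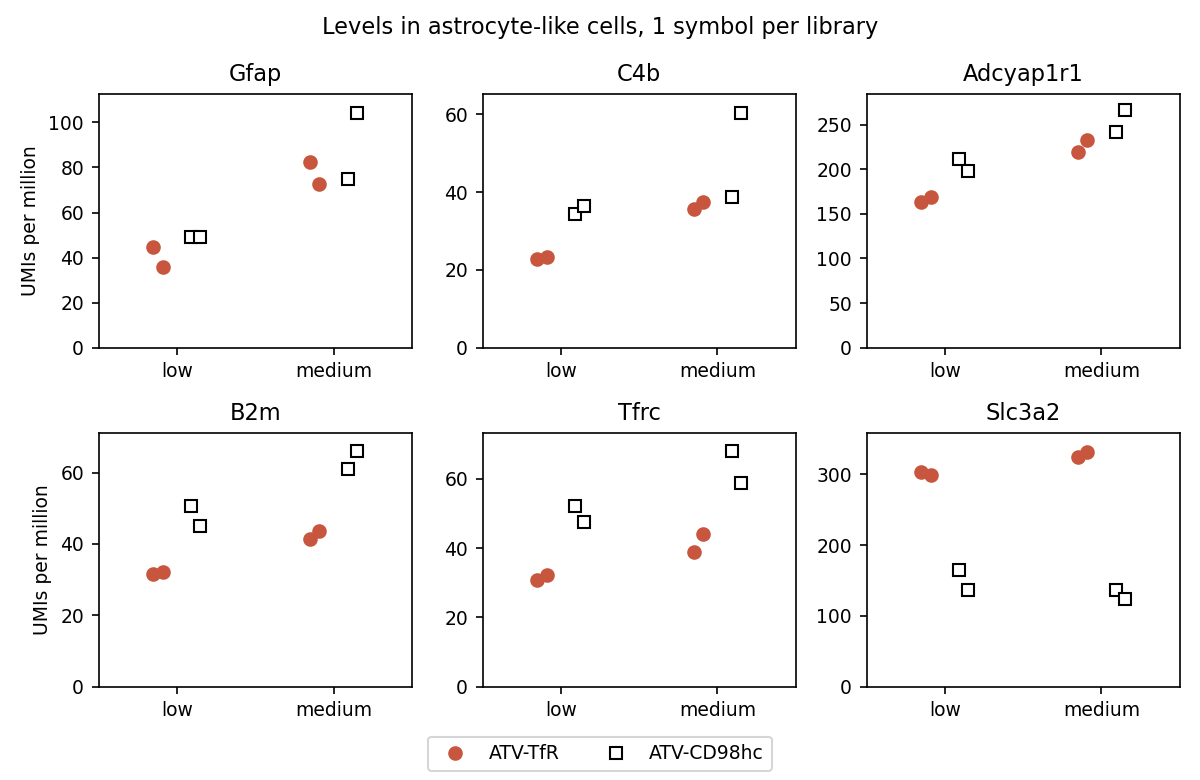
CPM of Gfap, C4b, Adcyap1r1, B2m, Tfrc and Slc3a2 in astrocyte-like cells of each low and medium library, filled circles for ATV-TfR and open squares for ATV-CD98hc. For Gfap the ATV-TfR libraries stand at 35.6 and 44.6 in the low bin and at 72.8 and 82.6 in the medium bin.

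The 2 receptors that the antibodies bind did not pass in astrocyte-like cells. Tfrc (chromosome 16, 32608920 to 32632794) stood at 30.9 and 32.2 CPM in the low bin and at 39.0 and 44.2 CPM in the medium bin. The bins did not overlap, and the log2 fold change was 0.42 (SE 0.096, adjusted p = 0.098). Of 18 alternatives 6 called Tfrc. The adjusted p was 0.0080 with the pool block, 0.028 with doublets kept and 0.0043 without a count filter. It was 0.025 in the largest cluster alone and 0.035 in that cluster with the 4 libraries. With animals as the block it was 2.0e-08, but there the male and female cells of a pool share a library and are not independent. The other 12 gave 0.061 to 0.89. Tfrc stood at 24.4 and 23.7 CPM in the negative bin and at 63.6 and 58.7 CPM in the high bin, so each bin's libraries lay above those of the bin before. How RNA from the knocked-in sequence was counted against the mouse reference was not tested. Slc3a2 was at 303 and 298 CPM against 324 and 332 CPM (0.15, SE 0.11, adjusted p = 0.96). Slc7a5 was at 24.5 and 27.2 CPM against 29.5 and 33.0 CPM (0.29, SE 0.16, adjusted p = 0.84). Fcgrt, the heavy chain of the neonatal Fc receptor, was at 48.0 and 48.1 CPM against 53.0 and 53.1 CPM (0.16, SE 0.11, adjusted p = 0.94).

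Most gene lists held no called member in astrocyte-like cells. Of 19 tested reactive astrocyte genes 2 rose, Gfap and C4b, where 0.0942% of all genes were called higher, and the list's median log2 fold change was 0.36, beside -0.00085 over all genes tested. With the block 5 of the 19 were called higher, the others being Osmr, Serpina3n and S100a10. Osmr, a cytokine receptor subunit, was at 3.24 and 3.60 CPM against 5.42 and 6.65 CPM (adjusted p = 0.16, and 0.0087 with the block). Of 7 Fc receptor and antibody-binding genes 1 rose, B2m. Of 19 transferrin receptor and iron genes none was called, with a median of 0.057. With the block Tfrc and Bmp6 were called there.

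Internalisation and degradation genes gave no calls. None of 26 clathrin and early endosome genes passed. None of 26 lysosome genes passed either, with a median of 0.16 and 24 of the 26 above 0. Lamp1, a lysosomal membrane protein, was at 355 and 336 CPM against 443 and 423 CPM (0.35, SE 0.11, adjusted p = 0.35). Among 15 endfoot and gap junction genes none passed (median 0.08), and Aqp4, the endfoot water channel, was at 688 and 669 CPM against 831 and 791 CPM (0.28, SE 0.15, adjusted p = 0.85). None of 13 transmitter clearance genes passed (median 0.14), nor any of 7 CD98 chains, 22 cholesterol and apolipoprotein genes, 19 extracellular signals, 16 immediate early genes, 18 interferon-stimulated genes, 13 integrated stress response genes and 19 glycolysis genes.

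Genes that mark astrocytes of different brain regions had no called member among 13 telencephalic and 15 other tested genes. With the block, 4 of these were called. Agt, angiotensinogen, which is richest outside the telencephalon, was at 759 and 820.5 CPM against 1077 and 1164 CPM (0.53, SE 0.14, adjusted p = 0.17, and 0.030 with the block). Crym of the telencephalic list was at 90.1 and 93.7 CPM against 55.9 and 41.2 CPM (-0.90, SE 0.27, adjusted p = 0.29, and 0.031 with the block). Igsf1, also telencephalic, went the other way, at 54.5 and 63.1 CPM against 82.1 and 93.2 CPM (0.60, adjusted p = 0.0082 with the block). Lgr6 of the other list was at 69.7 and 72.2 CPM against 54.8 and 50.1 CPM (-0.41, adjusted p = 0.0082 with the block).

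The remaining 11 called rises, named here after their values were seen, included matrix and signalling genes. Tnc, the matrix protein tenascin C, rose from 16.3 and 13.6 CPM to 27.9 and 25.4 CPM (0.86, SE 0.12, adjusted p = 0.0043). Gdf10, a growth factor of the TGF-beta family, rose from 11.3 and 11.7 CPM to 19.0 and 20.0 CPM (0.79, SE 0.11, adjusted p = 0.0043). Both genes, like Adcyap1r1, were higher in astrocyte-like cells of the negative bins than in any other named class there. Of the 15 called rises, these 3 alone had their highest level in astrocyte-like cells. Nnat, neuronatin, rose from 407 and 389 CPM to 741 and 656 CPM (0.83, SE 0.11, adjusted p = 0.0030). Ependymal-like cells held more Nnat than astrocyte-like cells, with 4104 to 8561 CPM in these libraries.

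Nr2f2, a nuclear receptor transcription factor, rose from 27.8 and 32.8 CPM to 44.5 and 51.4 CPM (0.68, SE 0.11, adjusted p = 0.0089). In the negative bins Nr2f2 stood at 806 CPM in pericyte-like and at 31.5 CPM in astrocyte-like cells. Plat, tissue plasminogen activator, rose from 14.0 and 14.6 CPM to 21.4 and 21.4 CPM (0.60, SE 0.12, adjusted p = 0.044). Fbln5, an elastic fibre protein, rose from 9.97 and 11.1 CPM to 16.7 and 17.5 CPM (0.72, SE 0.14, adjusted p = 0.038). In the largest astrocyte-like cluster alone the change of Fbln5 was 0.29 and was not called. The other 5 rises were Shisal1, Cav2, Pmepa1, the urea transporter Slc14a1 and the receptor phosphatase Ptprf, with log2 fold changes of 0.47 to 0.60. In the negative bins Plat stood at 583 CPM in fibroblast-like cells and Pmepa1 at 991 CPM in microglia-like cells, beside 14.7 and 30.1 CPM in astrocyte-like cells. Endothelial-like cells held 271 CPM of Cav2 and 166 CPM of Fbln5, beside 16.7 and 10.7 CPM. For Shisal1, Slc14a1 and Ptprf the highest class held 1.36, 1.06 and 2.19 times the astrocyte-like level. The part of RNA of these classes was not tested.

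Endothelial marker RNA in astrocyte-like cells moved with these rises. The 12 endothelial markers summed to 15.7 and 11.1 CPM in the low bin and to 44.2 and 34.5 CPM in the medium bin, and none was at 0. No marker was called, while 7 were with the block. In cells without a UMI of these markers 111 genes were called, and these held all 46. Ependymal markers summed to 83.5 and 85.1 CPM against 113 and 109 CPM. Their part in the rises was not tested.

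**Figure D4:**
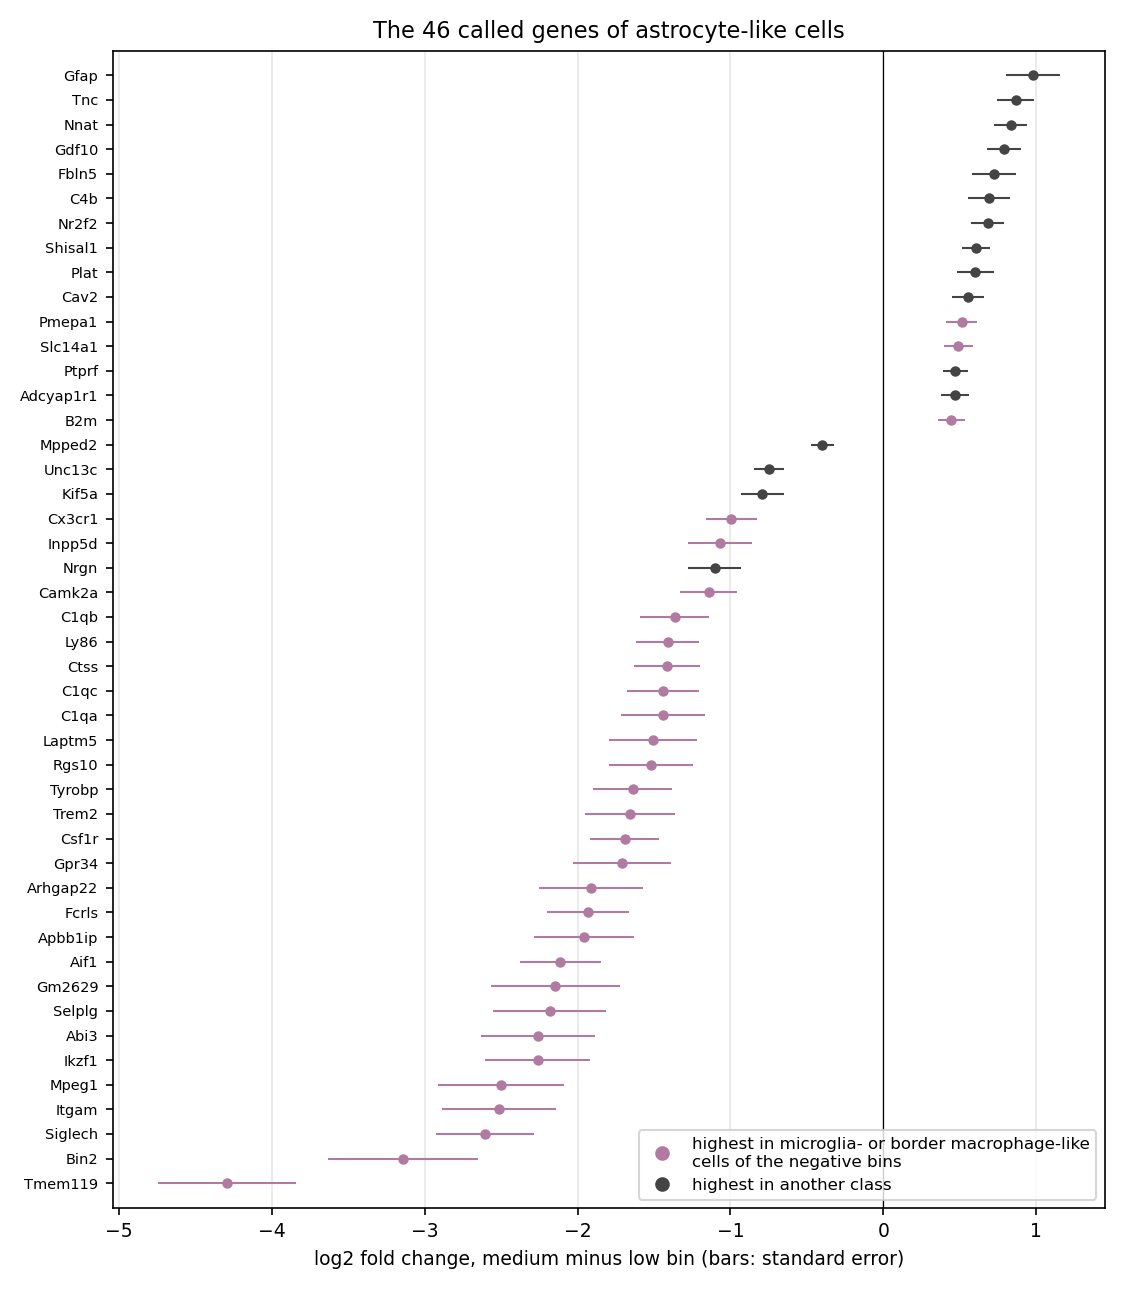
Log2 fold change from the low to the medium bin, with its standard error, of the 46 genes called in astrocyte-like cells. Purple marks genes whose level in the negative bins was highest in microglia-like or border macrophage-like cells, which make up 27 of the 31 falls, and grey marks genes highest in another class.

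Of the 31 called falls, 27 were in genes with their highest level in microglia-like (25) or border macrophage-like cells (2) of the negative bins. Tmem119, a microglial marker, fell from 0.824 and 1.01 CPM (41 and 64 UMIs) to 0.0619 and 0.0203 CPM (3 and 1 UMIs), which is -4.29 on the log2 scale (SE 0.45, adjusted p = 0.0022). In microglia-like cells of the same libraries it stood at 831 and 1031 CPM and at 762 and 763 CPM. Cx3cr1, the fractalkine receptor, fell from 3.26 and 3.38 CPM to 1.73 and 1.55 CPM, and C1qb, a complement subunit, from 5.95 and 7.78 CPM to 2.64 and 2.62 CPM. Among the 10 microglial markers 6 fell, and the list's sum was 109 and 115 CPM against 111 and 115 CPM, to which Sall1 gave 21.8 to 25.4 CPM. The microglia-like share of the same libraries was 2.76% and 1.93% against 0.305% and 0.328%. After a library-wide RNA profile, scaled to the endothelial markers, was subtracted, 21 genes were called and 11 of these 27 genes turned from lower to higher. It took 3.25% and 3.84% of the astrocyte-like UMIs in the low libraries and 1.29% and 1.02% in the medium libraries. With the profile of endothelial-like cells subtracted in its place, a setting added after seeing the data, 44 genes were called, each among the 46, and all 46 kept their direction. That profile took only 0.068% and 0.0477% of the astrocyte-like UMIs in the low libraries and 0.155% and 0.121% in the medium libraries. So small a subtraction of endothelial RNA cannot test the part of microglial RNA in the falls.

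The 10 neuron markers summed to 43.0 and 28.4 CPM in astrocyte-like cells of the low bin and to 44.1 and 26 CPM in the medium bin, so the bins overlapped. No cluster was named neuron-like, so no gene could be placed as highest in neurons. The other 4 falls and Camk2a, which is among the 27 above, were named after their values were seen. Unc13c, a synaptic vesicle priming protein, fell from 186 and 177 CPM to 108 and 104 CPM (-0.75, SE 0.10, adjusted p = 0.0030). Mpped2, a metallophosphoesterase, fell from 77.9 and 73.7 CPM to 58.8 and 54.4 CPM (-0.40, adjusted p = 0.035). Nrgn, a neuronal calmodulin-binding protein, fell from 14.9 and 13 CPM to 7.42 and 5.35 CPM (-1.10, SE 0.17, adjusted p = 0.0088). Camk2a, a kinase of excitatory synapses, fell from 11.4 and 8.56 CPM to 4.87 and 4.01 CPM (-1.14, SE 0.19, adjusted p = 0.011). In microglia-like cells of the same libraries Camk2a stood at only 9.87 and 15.4 CPM against 14.0 and 4.83 CPM. Kif5a, a neuronal kinesin, fell from 14.5 and 13.6 CPM to 7.96 and 7.97 CPM (-0.79, adjusted p = 0.019). In each of these 5 genes both medium libraries lay below both low libraries.

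In ATV-CD98hc libraries 35 of the 46 genes were called between low and medium astrocyte-like cells as well, where 737 of 15924 genes were called (4.63%). The 35 are 76.1% of the ATV-TfR calls and 4.75% of the ATV-CD98hc calls, and 34 had the same direction, 7 rises and 27 falls. Of these falls, all but Unc13c were in genes highest in microglia-like or border macrophage-like cells of the negative bins. The microglia-like share fell in both comparisons, with ATV-CD98hc from 11.6% and 8.64% to 1.40% and 0.651%. The part of microglial RNA in the overlap was not tested. The comparisons share no library, only the estimate of spread. Gfap was at 49.1 and 49.0 CPM in ATV-CD98hc low and at 74.9 and 104 CPM in ATV-CD98hc medium (0.86, adjusted p = 0.011), and its difference from ATV-TfR was 0.11 (adjusted p = 0.93). Gdf10 went the other way there, from 10.9 and 11.2 CPM to 7.46 and 6.87 CPM (-0.63, adjusted p = 0.033). The difference for Gdf10 was 1.42 (SE 0.19, adjusted p = 0.0082). Tnc was at 22.8 and 28.4 CPM against 25.8 and 22.6 CPM (-0.09), and its difference of 0.96 was not called (adjusted p = 0.070). Nrgn, Camk2a and Kif5a changed by -0.08, -0.07 and 0.16 in ATV-CD98hc, and their differences were not called either (adjusted p of 0.32, 0.36 and 0.17).

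In all, 14 of 15924 genes had a called difference between the antibodies in astrocyte-like cells (0.0879%), or 183 with the block (1.15%). Gdf10 was the only one of the 14 that was also called for ATV-TfR. For Slit2, an axon guidance ligand, the ATV-TfR libraries held 21.0 and 18.9 CPM against 23.4 and 24.6 CPM, and ATV-CD98hc rose from 28.1 and 25.7 CPM to 89.0 and 80.3 CPM. Chrdl1, a secreted BMP antagonist, was at 62.3 and 64.8 CPM against 51.7 and 57.4 CPM for ATV-TfR, and fell from 45.4 and 51.0 CPM to 14.3 and 22.2 CPM for ATV-CD98hc. The difference was called in 5 of 12 alternatives for Slit2 and in 6 of 12 for Chrdl1, with an adjusted p of up to 0.17 and 0.16. Leaving out 1 of the 8 libraries ended the call in 7 of 8 cases for Slit2 and in 5 of 8 for Chrdl1. For Gdf10 the difference was called in 10 of 12 alternatives.

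In endothelial-like cells, Plvap, Fbln5 and Igfbp3 fell and Tfrc, Slc7a5 and Slc1a1 rose in the medium bin. Of 15435 genes tested, 418 were called (2.71%), 113 higher (0.732%) and 305 lower (1.98%). With the pool block the count was 884 (5.73%), 352 higher (2.28%) and 532 lower (3.45%). Leaving out low pool 1, low pool 2, medium pool 1 or medium pool 2 gave 175, 208, 209 and 259 calls. The low libraries rest on 308 and 206 cells. Median UMIs were 2759 and 2746 in the low bin and 2394 and 2551 in the medium bin. The cluster with the most of these cells was the same in each library, holding 78.2% and 74.8% of them in the low bin and 54.4% and 60.2% in the medium bin. Another cluster held 6.49% and 6.31% of the class in the low bin and 27.1% and 26.3% in the medium bin, and a small one 4.22% and 7.28% (13 and 15 cells) against 0.0789% and 0.0427% (2 and 1 cells). In the largest cluster alone 273 genes were called, 244 of the 418 among them.

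Plvap (chromosome 8, 71497765 to 71511752), which forms the diaphragms of fenestrated endothelium, stood at 275 and 431 CPM in the low bin and at 0.305 and 2.77 CPM in the medium bin. The log2 fold change was -7.78 (SE 0.59, adjusted p = 2.4e-08), or -6.57 in the largest cluster alone. Gtpbp3 overlaps Plvap on the other strand. Fbln5 fell from 271 and 179 CPM to 7.31 and 14.8 CPM (-4.30, SE 0.40, adjusted p = 3.4e-07). Igfbp3, an insulin-like growth factor carrier, fell from 224 and 403 CPM to 26.8 and 42.2 CPM (-3.12, SE 0.37). In the largest cluster alone its change was -1.40. For each of the 3 genes both medium libraries lay below both low libraries.

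Tfrc, both chains of the CD98 amino acid carrier, Slc1a1 and Ddc rose. Tfrc stood at 34.3 and 57.1 CPM in the low bin and at 106 and 129 CPM in the medium bin, with 53.6 and 37.4 CPM in the negative bin and 229 and 252 CPM in the high bin. The rise was 1.45 on the log2 scale (SE 0.25, adjusted p = 0.00082). Without low pool 1 it was 1.08 and was not called (adjusted p = 0.12). Slc7a5 (chromosome 8, 121881150 to 121907694) rose from 181 and 182 CPM to 599 and 596 CPM (1.77, adjusted p = 0.00018), and its partner Slc3a2 from 249 and 242 CPM to 447 and 460 CPM (0.94, SE 0.21, adjusted p = 0.013). The Slc3a2 call was lost when any 1 of the 4 libraries was left out, at 0.89 to 1.00. The glutamate carrier Slc1a1 rose from 69.7 and 44.8 CPM to 212 and 178 CPM (1.80, adjusted p = 8.6e-05). Ddc, which makes dopamine and serotonin, rose from 49.3 and 35.5 CPM to 144 and 143 CPM (1.79, adjusted p = 4.3e-05).

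The 16 fixed lists held 0 to 5 called members each, where 2.71% of all genes were called, 0.732% higher and 1.98% lower. Of 19 transferrin receptor and iron genes 3 rose and 2 fell. The rises were Tfrc, the iron exporter Slc40a1 (67.6 and 69.5 CPM to 185 and 181 CPM, 1.48) and the ferritin receptor Ncoa4 (41.8 and 49.4 CPM to 80.6 and 84.8 CPM, 0.93). The falls were Bmp6, a ligand of iron sensing (33.2 and 41.7 CPM to 1.22 and 2.31 CPM, -4.33), and the ferroxidase Cp (428 and 380 CPM to 231 and 224 CPM, -0.77). Of 7 CD98 chains Slc3a2 and Slc7a5 rose. Fcgrt rose from 350 and 301 CPM to 577 and 586 CPM (0.89, SE 0.24, adjusted p = 0.039). The immediate early genes Fos and Nr4a1 fell, 2 of 18 tested, and 7 of the 18 were called lower with the block.

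Lists of vessel types were assembled after the values had been seen, so their counts are a description. All 8 tested fenestrated genes fell (median -3.31, beside 0.051 over all genes). Within the largest cluster alone 5 of the 8 were no longer called, with Cd24a at -0.85, Cd300lg at -0.23, Exoc3l2 at -2.12, Plpp1 at -0.68 and Plpp3 at -0.79. Of 19 arterial genes 15 fell (17 with the block, median -1.5). Mgp, a matrix calcification inhibitor, fell from 1544 and 1290 CPM to 154 and 190 CPM (-2.98), and elastin, Eln, from 299 and 281 CPM to 32.9 and 44.5 CPM (-2.85). Gkn3, an arterial marker, fell from 920 and 1146 CPM to 353 and 349 CPM (-1.5, adjusted p = 0.012), a call lost without any 1 library. Of 11 venous genes 2 fell, among them the adhesion molecule Vcam1 from 233 and 283 CPM to 55.1 and 55.6 CPM.

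Capillary genes and barrier carriers went the other way. Of 11 capillary genes 10 rose (median 1.48), and of 18 barrier carriers 12 rose (14 with the block, median 1.13). Mfsd2a, a lipid carrier that limits transcytosis, rose from 85.8 and 68.0 CPM to 246 and 248 CPM (1.73). Slc22a8, an organic anion carrier, rose from 97.6 and 91.1 CPM to 309 and 279 CPM (1.69). Mfsd2a and Slc22a8 were called in all 13 alternatives. The carriers Abcg2 and Slco1c1 were called in 7 of the 13, Slc16a1 in 9 and Slco1a4 in 10. The glucose carrier Slc2a1 was at 1615 and 2043 CPM against 1911 and 2121 CPM, with overlapping bins (0.20, SE 0.20, adjusted p = 0.86). The tight junction gene Cldn5 was at 6175 and 6354 CPM against 7459 and 7818 CPM (0.34, SE 0.20, adjusted p = 0.62).

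RNA of other classes in endothelial-like cells differed as well. Pericyte markers summed to 153 and 187 CPM in the low bin and to 389 and 371 CPM in the medium bin, astrocyte markers to 1769 and 1809 CPM against 1068 and 1253 CPM. Neuron markers summed to 769 and 667 CPM against 345 and 361 CPM, most of it from Stmn2 (755 and 658 CPM against 315 and 345 CPM). Their part in the results was not tested. Of the called genes, 62 of 113 rises and 87 of 305 falls had their highest level in endothelial-like cells of the negative bins.

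**Figure D5:**
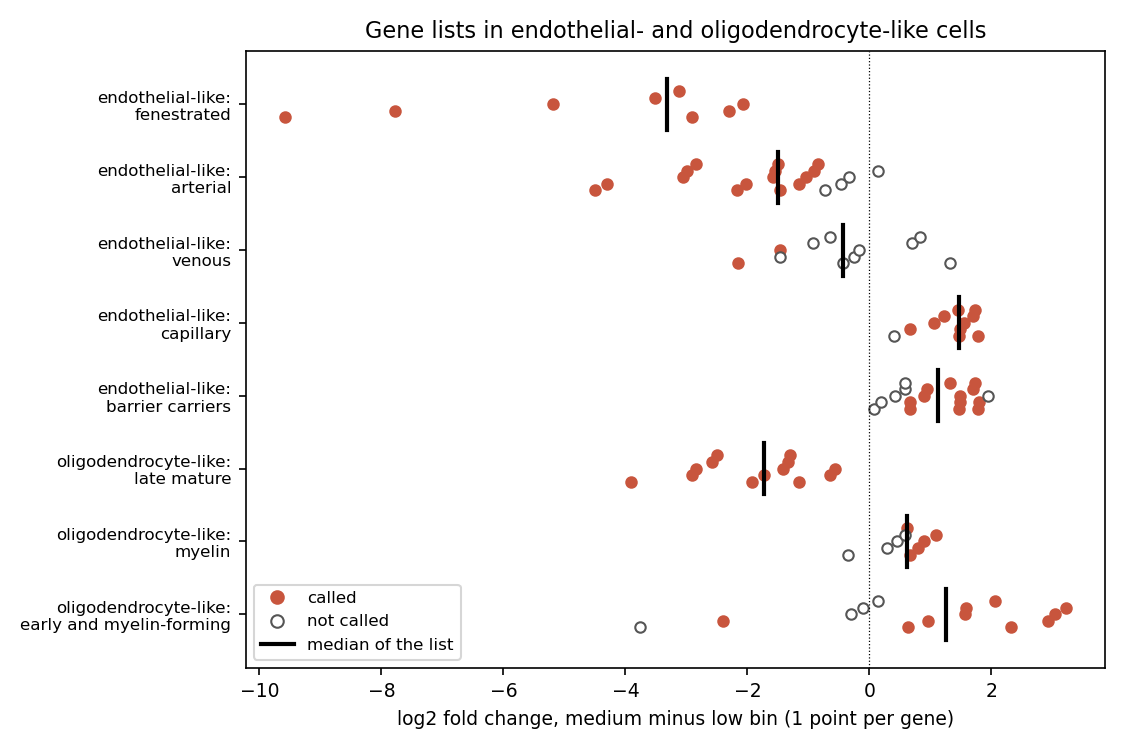
Log2 fold change from the low to the medium bin of each gene of 5 endothelial lists and 3 oligodendrocyte lists, filled where called, with a bar at each list's median. Fenestrated, arterial and late mature oligodendrocyte lists have medians of -3.31, -1.5 and -1.73, and capillary and barrier carrier lists of 1.48 and 1.13.

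Oligodendrocyte-like cells, although few, had the largest share of called genes among the 9 classes tested in the main fit. With the 4 ATV-TfR low and medium libraries alone this order turned. There 648 of 10379 genes were called in oligodendrocyte-like cells and 905 of 11861 in endothelial-like cells. Of 12912 genes, 670 were called (5.19%), 347 higher (2.69%) and 323 lower (2.5%), and 1008 with the pool block (7.81%), 523 higher (4.05%) and 485 lower (3.76%). Without low pool 1, low pool 2, medium pool 1 or medium pool 2 there were 434, 487, 325 and 360 calls. Median UMIs per cell were 5336 and 6729 in the low bin and 8845 and 8554 in the medium bin, and the part of this gap in the result was not tested. The 12 endothelial markers summed to 15.6 and 21.1 CPM against 85.8 and 228 CPM, with 4 of 12 called higher. Within the larger oligodendrocyte-like cluster alone 686 genes were called.

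By the naming rule, the largest falls were those of Klk6, Serpinb1a and Hapln2. Klk6 (chromosome 7, 43824499 to 43832030), a secreted protease, fell from 139 and 154 CPM to 15.2 and 3.42 CPM (-3.90, adjusted p = 1.5e-06). Serpinb1a, a protease inhibitor, fell from 283 and 228 CPM to 23.9 and 42.2 CPM (-2.91). Hapln2, a matrix link protein of the nodes of Ranvier, fell from 330 and 263 CPM to 47.8 and 31.9 CPM (-2.84). Among the 3 rises that this rule names, which needs an average log2 CPM of 5 or more and the highest negative-bin level in this class, 9630013A20Rik went from 30.3 and 39.2 CPM to 280 and 274 CPM (3.04, SE 0.32, adjusted p = 2.8e-06). This transcript is antisense to Pcdh17 and overlaps it, so reads cannot be told apart without strand. Crtac1 rose from 38.9 and 35.7 CPM to 131 and 120 CPM (1.80), and 9530059O14Rik from 93.0 and 65.2 CPM to 275 and 223 CPM (1.70).

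Lists of oligodendrocyte stages were also assembled after the values had been seen. All 13 late mature genes fell (median -1.73, beside -0.016 over all genes). Qdpr was called in 6 of 13 alternatives and Ptgds in 9, and the others in all 13. Trf, transferrin itself, fell from 4060 and 3445 CPM to 1409 and 1473 CPM (-1.34, adjusted p = 2.7e-05), and Apod, a lipid-binding protein, from 1057 and 1145 CPM to 295 and 345 CPM (-1.73). Of 14 early and myelin-forming genes 9 rose and 1 fell (median 1.26). Ctps rose from 64.0 and 55.1 CPM to 483 and 398 CPM (2.93), and Opalin from 969 and 960 CPM to 1806 and 1819 CPM (0.96). The exception, Enpp6, an early differentiation marker, fell from 166 and 166 CPM to 30.4 and 30.8 CPM (-2.39).

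Myelin genes rose in part. Of 9 tested 5 rose (7 with the block, median 0.61). Mag, a myelin adhesion molecule, rose from 2658 and 2543 CPM to 4910 and 5793 CPM (1.09, adjusted p = 0.00097). Mbp was at 4501 and 3864 CPM against 5409 and 5657 CPM (0.45, SE 0.16, adjusted p = 0.13, and 0.028 with the block).

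Iron and sterol genes moved within the fixed lists. Of 19 iron genes, Trf and the ferritin heavy chain Fth1 fell and Fbxl5, an iron sensor, rose. Fth1 went from 17943 and 17242 CPM to 8269 and 9430 CPM (-0.94, adjusted p = 0.00064). Tfrc was at 31.1 and 32.2 CPM against 36.9 and 36.5 CPM (0.26, adjusted p = 0.70). Over all genes 2.69% were called higher and 2.5% lower. Of 22 cholesterol and apolipoprotein genes 4 rose, the synthesis genes Hmgcs1, Idi1 and Cyp51 among them, and 2 fell, Abcg1 and Sorl1. Hmgcs1 rose from 318 and 278 CPM to 574 and 544 CPM (0.96, adjusted p = 0.00091).

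The 6 smaller classes tested had between 3 and 37 called genes. In choroid plexus epithelial-like cells 37 of 12699 genes rose (0.291%) and none fell. In the negative bins 9 of the 37 were highest in this class, 8 in endothelial-like, 8 in ependymal-like and 7 in fibroblast-like cells. Endothelial markers here summed to 151 and 109 CPM in the low bin and to 335 and 274 CPM in the medium bin, and their part was not tested. With the block 103 were called (0.811%), 98 of them higher (0.772%). Cdh18 had the largest rise by the naming rule, from 3.97 and 1.12 CPM to 27.9 and 14.4 CPM (3.03), and was called in 8 of 12 alternatives. Grm8, a glutamate receptor, rose from 6.85 and 5.21 CPM to 31.9 and 35.3 CPM (2.50, adjusted p = 0.00018). Htr2c, the serotonin receptor of this epithelium, rose from 204 and 244 CPM to 809 and 453 CPM (1.52), a call lost without low pool 1 (1.37) or medium pool 1 (1.03). Fras1, a basement membrane protein, rose from 22.7 and 26.8 CPM to 92.9 and 72.6 CPM (1.77), and was lost without low pool 1 (1.62) or medium pool 1 (1.57). Steap2, an iron and copper reductase of the iron list, rose from 41.5 and 55.9 CPM to 105 and 80.6 CPM (0.96, adjusted p = 0.034). It was lost without low pool 1 (0.73) or medium pool 1 (0.74). Median UMIs were 8131 and 8829 in the low bin and 10084 and 10560 in the medium bin.

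In microglia-like cells 4 of 12022 genes rose (0.0333%), from 45 and 47 medium cells. With the block 73 were called, 59 of them higher (0.491%). Anxa5, which binds exposed phosphatidylserine, rose from 40.3 and 44.5 CPM to 161 and 135 CPM (1.81, SE 0.27, adjusted p = 0.0032). Without medium pool 2 it was 1.90 and was not called (adjusted p = 0.18). Spp1, osteopontin, a gene of activated microglia, was at 140 and 15.4 CPM against 1356 and 599 CPM (3.60, adjusted p = 0.038), and DESeq2 did not call it (adjusted p = 0.94). Spp1 in microglia-like cells was also lost without low pool 2 (2.81), medium pool 1 (2.98) or medium pool 2 (4.08). Ccl6 was at 97.9 and 134 CPM against 69.9 and 898 CPM, so the bins overlapped, and without medium pool 2 its change was -0.757. Apoe was at 2084 and 2401 CPM against 9774 and 5761 CPM (1.79, adjusted p = 0.14, and 7.7e-17 with the block). The edgeR fit with the block gave an adjusted p of 1.4e-15 for Ccl6, despite its overlapping bins, and of 3.4e-48 for Spp1. Such small values in this class therefore do not show that the 2 pools agreed. None of 8 homeostatic genes was called. Of the 4 called rises, Ccl6 alone was highest in microglia-like cells of the negative bins. There Spp1 stood at 3244 CPM in fibroblast-like and at 29.0 CPM in microglia-like cells. Anxa5 was highest in ependymal-like cells and Myo1e in smooth muscle-like cells. Endothelial markers in the microglia-like cells summed to 197 and 136 CPM against 944 and 222 CPM. The part of RNA of other classes was not tested.

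In fibroblast-like cells 8 of 11880 genes rose (0.0673%), or 56 with the block, and each of the 8 was highest in endothelial-like cells of the negative bins. Flt1, a VEGF receptor, was at 0 and 7.77 CPM against 162 and 185 CPM, and Cldn5 at 21.4 and 35.7 CPM against 279 and 251 CPM. Endothelial markers there summed to 251 and 295 CPM in the low bin and to 1391 and 1315 CPM in the medium bin. In pericyte-like cells 11 of 9978 genes were called (0.11%), or 21 with the block, and 1 of them was lower in both fits (0.01%). The 10 rises were in genes highest in endothelial-like cells, such as Itm2a at 22.9 and 4.71 CPM against 193 and 394 CPM, and endothelial markers summed to 992 and 245 CPM against 1511 and 3126 CPM. The fall was in Crym, with 17 and 13 UMIs in the low bin and 0 in the medium bin, at least 16.9-fold lower against 3 counts over the group. Crym was called here in 5 of 11 alternatives, and not without low pool 1, low pool 2 or medium pool 2 (adjusted p of 0.18, 0.35 and 0.63). In the negative bins Crym was highest in astrocyte-like cells, at 154 CPM, beside 2.52 CPM in pericyte-like cells. The part of endothelial and astrocyte RNA in these results was not tested.

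In ependymal-like cells 4 of 9511 genes fell (0.0421%), and 5 were called with the block (0.0526%), with 34 and 26 cells in the medium libraries. Tctex1d4 fell from 183 and 150 CPM to 27.3 and 23.9 CPM (-2.68), and was lost without low pool 1 (-2.53) or medium pool 1 (-2.77). Rp1, a microtubule protein of cilia, had 22 and 18 UMIs in the low bin and 0 in both medium libraries, at least 5.58-fold lower against 3 counts over the group. Rp1 was called in 4 of 12 alternatives, and not without any 1 of the 4 libraries (adjusted p of 0.064 to 0.25) or by DESeq2 (0.97). In border macrophage-like cells 3 of 8170 genes fell (0.0367%), Nnat, Camk2g and Ank2, and 39 were called with the block, 4 higher (0.049%) and 35 lower (0.428%). With doublets kept none of the 3 was called (adjusted p of 0.62 or more), and 4 other genes rose. Nnat was at 126 and 270 CPM against 19.8 and 36.9 CPM (-2.91, adjusted p = 0.041), and Nnat in border macrophage-like cells lost its call without low pool 2 (-2.28), medium pool 1 (-2.41) or medium pool 2 (-3.25). Astrocyte markers in these cells summed to 3923 and 2689 CPM against 1796 and 989 CPM, and their part was not tested.

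Outside endothelial-like and astrocyte-like cells, Tfrc was not called in any of the 7 other tested classes, nor by any alternative fitted there. In ependymal-like cells it was at 9.43 and 7.61 CPM against 41.0 and 23.9 CPM (1.91, SE 0.65, adjusted p = 0.48). In pericyte-like cells it was at 22.9 and 0 CPM against 24.2 and 29.8 CPM, and in microglia-like cells at 3.29 and 4.54 CPM against 6.99 and 14.5 CPM. Border macrophage-like cells held 27.3 and 19.8 CPM against 19.8 and 14.8 CPM (-0.39, SE 0.73). Choroid plexus epithelial-like cells held 5.41 and 4.84 CPM against 9.11 and 5.47 CPM, and fibroblast-like cells 7.13 and 3.11 CPM against 8.64 and 15.5 CPM. Adjusted p was 0.85 or more in these 5 classes, and the levels rest on few UMIs.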

How the data were processed

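Single-cell RNA libraries of sorted mouse brain cells were analysed from 1 combined matrix of UMI counts with 32285 genes and 265025 barcodes. The authors' deposited counts are whole numbers per gene and barcode made with Cell Ranger 7.1.0, per the file headers; mm10 and GRCm38 are the builds in the submitters' processing notes, and whether intronic or antisense reads were counted is not given in the sources used here. Barcodes were assigned to libraries by the number after the hyphen, through the deposited sample index. Cells were kept from 500 genes and 800 UMIs upwards, with mitochondrial UMIs of 10% or less. Doublets were removed per library with Scrublet in scanpy 1.11.5, by its automatic threshold in the 4 ATV-TfR low and medium libraries and ATV-CD98hc low pool 1, and by percentile 94 of the score in ATV-CD98hc low pool 2 and both ATV-CD98hc medium libraries, where the automatic threshold marked too few or too many cells.

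Cells were clustered with Leiden (2000 variable genes, 50 components, resolution 1) and named from 20 marker lists. A naming step, the fold of a cluster's markers against other clusters, was changed after 3 clusters had stayed unnamed: it is now taken against clusters whose best-supported list differs. UMIs were summed per class and library with at least 20 cells, and tested with edgeR 4.0.16 (quasi-likelihood, TMM, filterByExpr) in R 4.3.3 with 1 mean for each of 12 groups; shares were tested on cell numbers with kept cells as offset. P-values were Benjamini-Hochberg adjusted over all genes of a class, or over the classes, and called below 0.05. They measure the spread between replicate libraries, shared over all groups in a fit, and not that of the 2 ATV-TfR pools alone. The main fits do not use the pairing by pool. Since low and medium cells of a pool come from the same animals, pools pair the libraries; the pool 1 minus pool 2 deviations of low and medium correlated across genes at 0.733 in astrocyte-like (8228 genes), 0.161 in endothelial-like and 0.192 in oligodendrocyte-like cells; genes are not independent replicates. Alternatives were the pool block, fewer libraries, each library left out, other cell and count filters, RLE size factors, DESeq2 1.42.0, profile subtraction, single clusters and animals.

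Members and lists were chosen with earlier results of these data known. Genes named by rule were Tfrc, Slc3a2, Slc7a5, Fcgrt and Gfap, and up to 4 called members per list and direction. With them went the 10 (other classes 3) largest rises and falls whose average log2 CPM is 5 or more. For these the bins did not overlap and the highest negative-bin level lay in that class. All other genes named were chosen after their values were seen, also where this is not said. So were the lists of vessel types, oligodendrocyte stages and microglial states and the genes named from them. CPM values scale the UMIs of a class in a library to one common total. Coordinates are GENCODE M21 on GRCm38, which held 32235 of the feature IDs. The fitting was tested on simulated data, where false calls ran slightly above the nominal rate. Smooth muscle-like cells were too few for a test of expression.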

Additional observations from a re-analysis of the deposited data

Results flagged for a closer look

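The change in the astrocyte-like share from the low to the medium bin differed between ATV-TfR and ATV-CD98hc by 2.85 on the log2 scale (SE 0.56, adjusted p = 0.00039, edgeR's quasi-likelihood test of the difference itself). It is a difference in shares of all kept cells. With ATV-CD98hc the endothelial-like share rose from 12.0% and 11.1% to 81.9% and 81.9%, and the part of this rise was not tested. The remaining results listed here are genes of astrocyte-like cells whose medium-minus-low change differed between the antibodies by the same kind of test. Differences are log2 values, ATV-TfR minus ATV-CD98hc, with adjusted p between 0.0023 and 0.048.

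The change was lower for ATV-TfR in 6 genes. The difference was -2.82 for the angiopoietin receptor Tek, -2.64 for Fgd5, -2.20 for Ltbp4, -1.82 for Kitl, the ligand of Kit, -1.44 for Spock2 and -1.36 for Slit2. Of 12 alternatives 11 called the difference for Tek, 5 for Slit2, 4 for Spock2, 3 for Ltbp4, 2 for Kitl and 2 for Fgd5. In each of these ATV-CD98hc changed by 1.65 to 2.80 and ATV-TfR by -0.17 to 0.39. Tek in astrocyte-like cells rose from 1.72 and 2.02 CPM to 14.1 and 12.3 CPM with ATV-CD98hc and stood at 1.45 and 1.55 CPM against 1.63 and 1.30 CPM with ATV-TfR. Tek, Fgd5, Ltbp4, Kitl and Spock2, 5 of the 6, were highest in endothelial-like cells of the negative bins, and endothelial markers in the ATV-CD98hc medium astrocyte-like cells summed to 424 and 619 CPM, beside 45.7 and 68.7 CPM in the ATV-CD98hc low bin. With doublets kept, the difference was -0.23 for Tek, -0.44 for Ltbp4, -0.39 for Kitl, -0.28 for Spock2 and 0.29 for Fgd5, none of them called, and -1.41 for Slit2, the 1 lower difference still called. The share of cells removed as doublets was 13.5% in ATV-CD98hc low pool 1, where Scrublet's automatic threshold was used, and 5.16% to 5.97% in the other 3 ATV-CD98hc libraries, where a percentile was used. In the 4 ATV-TfR libraries, with the automatic threshold, it was 6.56% to 8.09%. The part of doublets and of endothelial RNA in the difference was not otherwise tested.

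The change was higher for ATV-TfR in 8 genes. The difference was 1.60 for Gm31614, 1.42 for Gdf10, 1.22 for the netrin receptor Unc5c, 1.20 for Chrdl1, 1.18 for Gm26843, 1.11 for Fam184b, 1.01 for Ankrd29 and 0.89 for Lypd6. Of 12 alternatives 12 called the difference for Gm26843, 10 for Gdf10, 6 for Unc5c, 6 for Chrdl1, 5 for Fam184b, 5 for Ankrd29, 4 for Gm31614 and 3 for Lypd6, with an adjusted p of up to 0.30. In these genes ATV-CD98hc fell by 0.63 to 1.51, and among them Gdf10 alone was called for ATV-TfR.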

How the results depend on the processing

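The bins of a pool came from the same animals, and with the pool as a replicate block the called genes numbered 203 in astrocyte-like, 884 in endothelial-like, 1008 in oligodendrocyte-like, 103 in choroid plexus epithelial-like, 73 in microglia-like, 56 in fibroblast-like, 39 in border macrophage-like and 21 in pericyte-like cells, and 183 for the difference between antibodies. With the replicate block the change in share was -0.780 for choroid plexus epithelial-like and 0.635 for pericyte-like cells, now called, and the block changed no other call of share. With the 4 ATV-TfR libraries alone the gene counts were 124 (astrocyte-like), 905 (endothelial-like), 307 (choroid plexus epithelial-like), 143 (border macrophage-like), 85 (fibroblast-like), 30 (microglia-like), 0 (ependymal-like) and 0 (pericyte-like), the share changes -0.787 (choroid plexus epithelial-like, now called) and 0.836 (border macrophage-like, lost), and with the 8 libraries of both antibodies the difference gave 160. With doublets kept the counts were 288 (astrocyte-like), 107 (choroid plexus epithelial-like), 24 (microglia-like), 20 (pericyte-like), 2 (fibroblast-like) and 6 (difference), border macrophage-like cells had 4 rises and 0 of their 3 falls called, the ependymal-like share lost its call at -0.993 and the difference for Fgd5 turned to 0.289. The stricter cell filter gave 30 (astrocyte-like), 19 (choroid plexus epithelial-like) and 2 (ependymal-like) genes, and share changes of 0.454 (border macrophage-like) and -1.32 (smooth muscle-like), both lost. DESeq2 called 71 genes in astrocyte-like, 60 in choroid plexus epithelial-like, 13 in fibroblast-like, 13 in microglia-like, 4 in pericyte-like, 2 in ependymal-like and 0 in border macrophage-like cells. An unadjusted p below 0.05 with edgeR was reached by 557 genes in border macrophage-like, 720 in ependymal-like, 478 in pericyte-like and 705 in microglia-like cells. Without a count filter the numbers were 315 (astrocyte-like), 167 (choroid plexus epithelial-like), 98 (fibroblast-like), 93 (border macrophage-like), 57 (pericyte-like), 56 (ependymal-like) and 45 (microglia-like), and with at least 50 counts in 2 libraries 62 (choroid plexus epithelial-like), 1 (ependymal-like), 1 (microglia-like) and 0 (border macrophage-like). In astrocyte-like cells alone, 111 genes were called in cells without an endothelial marker UMI, 131 in the largest cluster and 166 in that cluster with 4 libraries (chosen after seeing the data), 3944 with animals as the block, where the animals of a pool share a library, 21 after subtraction of the library-wide profile and 44 after that of the endothelial-like profile (also chosen after seeing the data). Subtraction of the library-wide profile turned Fcrls to 1.13, Trem2 to 3.75, Csf1r to 0.41, Laptm5 to 3.35, C1qa to 7.89, C1qc to 7.21, C1qb to 1.85, Ctss to 6.72, Gpr34 to 2.72, Selplg to 0.23 and Cx3cr1 to 0.25. Counts that this subtraction brought below 0 were set to 0, so the sizes of these values are not measured fold changes. The largest endothelial-like cluster alone gave 273 genes, also a setting chosen after seeing the data. Among males alone the share change was 0.184 (border macrophage-like) and -1.01 (ependymal-like), among females alone -0.920 (ependymal-like), and outside endothelial-like cells -0.813 (ependymal-like), all lost. The oligodendrocyte-like change was -1.05 in males and -2.13 in females and the endothelial-like change 2.73 and 3.62, each called, and the difference between the sexes was not tested. Leaving out 1 library gave share changes of 0.307 to 1.22 (border macrophage-like), -1.36 to -0.684 (ependymal-like) and -1.98 to -1.08 (smooth muscle-like), and 6 to 16 genes (astrocyte-like), 175 to 259 (endothelial-like), 325 to 487 (oligodendrocyte-like), 1 to 67 (choroid plexus epithelial-like), 0 to 9 (microglia-like), 1 to 3 (fibroblast-like), 1 to 55 (pericyte-like), 0 to 1 (border macrophage-like), 0 to 10 (ependymal-like) and 2 to 12 (difference). A bin left with 1 library was taken to vary like the other groups. Ccl6 in microglia-like cells ran from -0.757, without medium replicate 2, to 3.01. Over 217 pairs of a named gene and a class, the alternatives kept direction and call in 2291 values, lost the call in 646, gained one in 9 and turned direction in 13. Apart from fewer libraries, cells or genes by construction, the cause was not tested. Each bin had 2 pools, and some medium libraries held only 12 to 47 cells of a class. The part of these cell numbers in the counts of called genes was not tested.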

Other observations

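Some genes of endothelial-like cells were seen in the low bin and had no UMI in the medium bin despite its 2535 and 2342 cells. They were chosen after their values were seen. Penk, the enkephalin precursor, stood at 59.0 and 41.7 CPM in the low libraries, so its pooled level was at least 226-fold lower in the medium bin against 3 counts over the group. Btnl9, a butyrophilin-like gene, stood at 38.6 and 49.4 CPM and was at least 187-fold lower. Ntf3, neurotrophin 3, stood at 16.1 and 12.4 CPM and was at least 63.4-fold lower. In oligodendrocyte-like cells the lysosomal protease Ctsl rose from 147 and 196 CPM to 475 and 684 CPM (1.81 on the log2 scale, adjusted p = 1.5e-05), one of 2 called among 26 lysosome genes, where 5.19% of all genes were called.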
